A study of Rattus norvegicus with 24 samples.

Results

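The 10 genes described here belong to the circadian clock: Arntl, Clock, Npas2, Per1, Per2, Per3, Cry1, Nr1d1, Nr1d2 and Dbp. They were chosen by name, through the gene name that the array design gives each probe. The array holds 16 probes for them, of which 13 passed the filter on dim probes, and all 10 genes were among the 20902 genes tested. RNA came from the left dorsal striatum of male Long Evans rats aged 80 to 90 days. MDPV (methylenedioxypyrovalerone) is a synthetic cathinone that blocks dopamine and noradrenaline uptake. All rats had 5 daily intraperitoneal injections. Chronic rats had MDPV at 1 mg/kg in all 5, acute rats had saline and then MDPV in the last 1, and saline rats had saline only. Rats were killed 24 h after that last dose. The clock time of injection and of killing is not given in the sources used here, so no value below can be placed in the daily cycle.

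The clock is a transcriptional feedback loop. ARNTL (BMAL1) pairs with CLOCK or, mainly in forebrain, with NPAS2, and the pair binds E-boxes to switch on the Per, Cry and Nr1d genes and Dbp. PER and CRY proteins repress the pair, and NR1D1 and NR1D2 (REV-ERB alpha and beta) repress Arntl through ROR elements, so in rhythmic tissues Arntl and Npas2 peak away from Per, Nr1d1 and Dbp. In the striatum, where dopamine signalling is dense, clock gene expression is also rhythmic.

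The promoter windows of RefSeq (build GRCr8, 250 bases before to 50 after each start) were searched for letters of these elements on both strands. Windows were matched for 9 of the 10 genes, Arntl under its current symbol Bmal1, and 7 motifs were searched. Stretches upstream of the start are shown for 3 genes because they hold the letters on which the loop is known to work, with the matched letters in capitals.
Arntl, chr1:176766268-176766327, plus strand, TAGGTCA of a ROR element: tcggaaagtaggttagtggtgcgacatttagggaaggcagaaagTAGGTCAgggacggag
Per2, chr9:99497044-99497193, minus strand, the D-box TTATGNAA and the E-box variant CACGTT: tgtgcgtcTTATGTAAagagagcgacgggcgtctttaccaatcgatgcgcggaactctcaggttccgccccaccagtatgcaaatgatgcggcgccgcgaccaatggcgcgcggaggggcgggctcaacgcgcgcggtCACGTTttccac
Nr1d1, chr10:84229628-84229657, minus strand, the E-box CACGTG before its second listed start: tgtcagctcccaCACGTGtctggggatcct
Of all 33469 windows, TAGGTCA was in 2.63%, TTATGNAA in 3.66%, CACGTT in 4.83% and CACGTG in 6.42%. The other motifs were GGGTCA, in 13.8% of windows and in that of Nr1d2, TGACG, in 21.2% and in those of Per2, Per3 and Nr1d2, and TGACGTCA, in 1.83% and in none of the 9 genes. CACGTT on the other strand was also in the first Nr1d1 window. CACGTG was in 1 of the 9 genes, and the windows of Clock, Npas2, Per1 and Dbp held none of the motifs. These matches describe letters and carry no test.

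The data were 24 arrays, 8 per group, on 3 slides of 8, each with all 3 groups. In each group 4 arrays share title letters in pairs, and since the series design states 6 per group these pairs were averaged, giving 18 units, 6 per group. Nothing states that units are separate animals, so p-values measure the spread between these units. Between 50.7% and 71.3% of spots on an array were well above background, and the number of arrays limits the precision. Defining striatal markers were present on all 24 arrays: Ppp1r1b, the DARPP-32 gene, lay between 3.12 and 5.75, and Drd1, a dopamine receptor gene, between 1.91 and 3.42. Levels here are log2 signals relative to the 75th percentile of their array, so 0 is that percentile. Saline replicate 4 stood apart. Its mean over 6 measured hypothalamic markers was -0.33, against -4.06 to -3.25 in chronic units and -3.85 to -3.41 in acute units, and Avp, the vasopressin gene, was at 2.62 on that array, while Ppp1r1b, Drd1 and Drd2 were at their lowest of all arrays there. The main results that rest on saline replicate 4 are given with and without it. Apart from Npas2, the genes named as most like or most opposed to Arntl have a partial r given only with it. Choroid plexus markers varied in every group. Ttr had lowest, median and highest of -5.60, -4.18 and 6.26 on chronic arrays, -3.81, 2.31 and 5.00 on acute arrays and -4.34, 4.26 and 6.33 on saline arrays. The mean over 5 measured choroid plexus markers was -4.21 for chronic, -3.28 for acute and -2.06 for saline. The group comparisons were not adjusted for such tissue, and its part in them was not tested.

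In the positive limb, Arntl, the obligate partner of the pair, had levels with lowest, median and highest of -1.31, -1.11 and -0.73 on chronic arrays, -1.45, -1.20 and -0.75 on acute arrays and -1.95, -1.38 and -0.71 on saline arrays. Npas2, its forebrain partner, had -0.20, 0.04 and 0.46 on chronic arrays, -0.38, 0.06 and 0.42 on acute arrays and -1.22, 0.08 and 0.41 on saline arrays. For both genes the ranges of the 3 groups overlapped, and saline replicate 4 was the lowest array, at -1.95 for Arntl and -1.22 for Npas2. Clock, the other partner, was dim: its brighter probe had -6.56, -5.94 and -4.90 on chronic arrays, -6.64, -6.37 and -5.75 on acute arrays and -7.27, -6.39 and -6.06 on saline arrays. It was well above background on 5 of 8 chronic, 5 of 8 acute and 1 of 8 saline arrays, so it passed the filter through the groups in which it was brighter. The plot of levels by array marks the dim spots as open points.

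**Figure D1:**
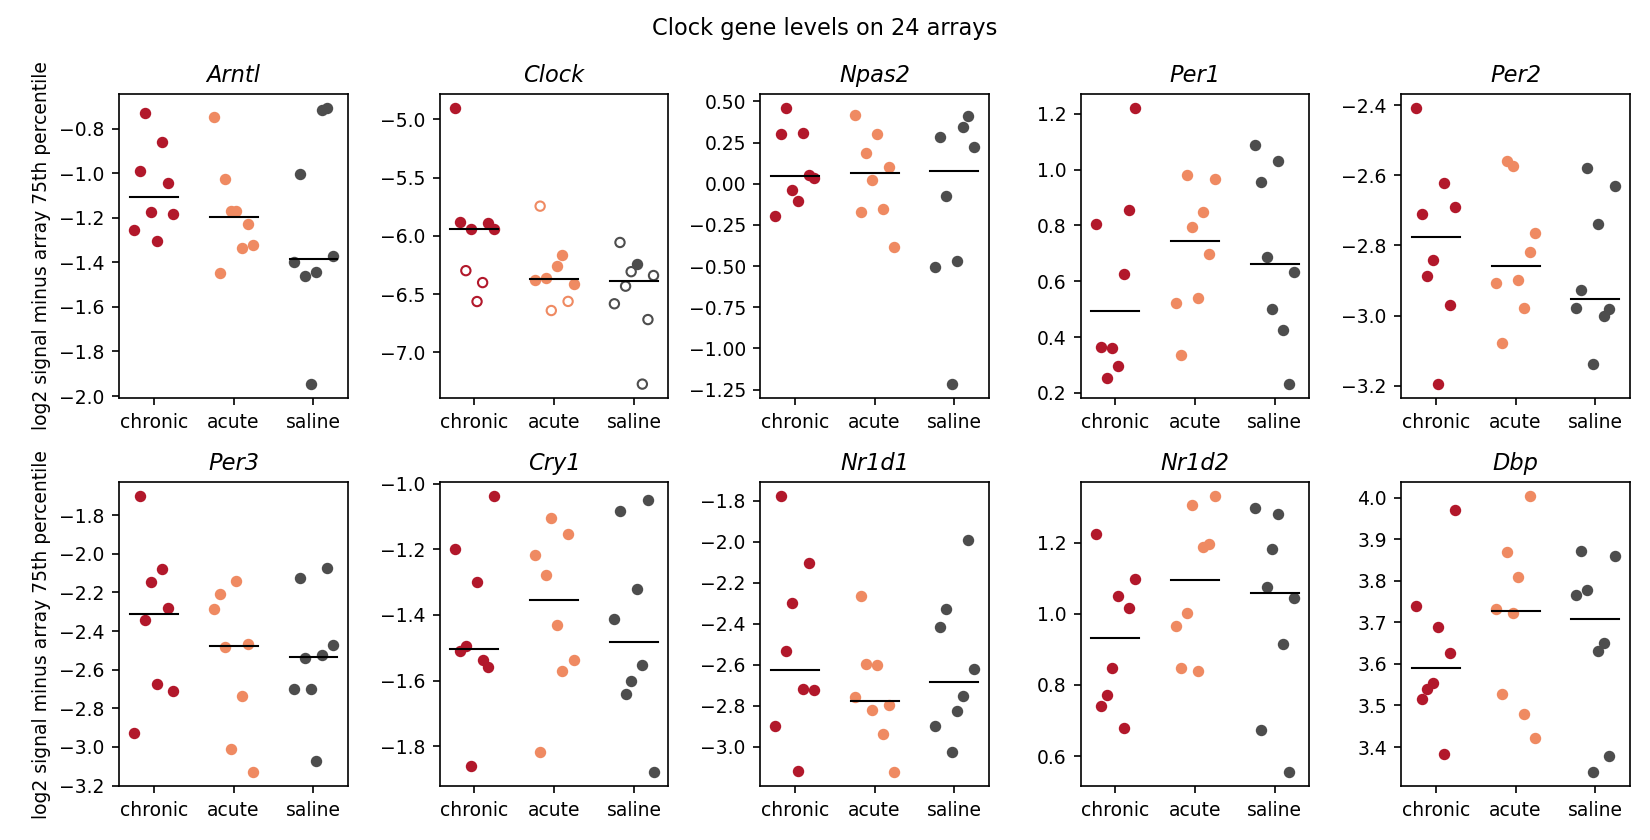
Level of each clock gene on 24 arrays (y axis, log2 signal minus the 75th percentile of the array; x axis, group), by the probe used for the gene, with a line at the group median and open points for spots not well above background. The groups overlap for every gene, and most Clock spots in saline arrays are open (1 of 8 well above background).

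Among the repressors, Per1, an immediate target of the pair and of cAMP signalling, had 0.25, 0.50 and 1.22 on chronic arrays, 0.34, 0.75 and 0.98 on acute arrays and 0.23, 0.66 and 1.09 on saline arrays. Per2 had -3.20, -2.78 and -2.41 on chronic arrays, -3.08, -2.86 and -2.56 on acute arrays and -3.14, -2.95 and -2.58 on saline arrays. Cry1, a strong repressor of the pair, had -1.86, -1.50 and -1.04 on chronic arrays, -1.82, -1.35 and -1.10 on acute arrays and -1.88, -1.48 and -1.05 on saline arrays. The groups overlapped widely in all 3 genes. Per3, a less essential period gene, had -2.93, -2.31 and -1.70 on chronic arrays, -3.13, -2.48 and -2.14 on acute arrays and -3.07, -2.53 and -2.07 on saline arrays. Its other 2 probes were well above background on 1 and 0 of 24 arrays and were not used.

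In the nuclear receptor loop, Nr1d1 had -3.12, -2.63 and -1.78 on chronic arrays, -3.13, -2.78 and -2.26 on acute arrays and -3.03, -2.69 and -1.99 on saline arrays. Nr1d2 had 0.68, 0.93 and 1.22 on chronic arrays, 0.84, 1.09 and 1.33 on acute arrays and 0.55, 1.06 and 1.30 on saline arrays. Dbp, a transcription factor read as an output of the clock, had 3.38, 3.59 and 3.97 on chronic arrays, 3.42, 3.73 and 4.00 on acute arrays and 3.34, 3.71 and 3.87 on saline arrays. Again the groups overlapped. Over the 24 arrays Dbp varied least, with an SD of 0.19, and Clock most, with 0.44, against quartiles of 0.19 and 0.42 over all genes, and between 23.8% and 77.8% of all genes had a lower SD than the clock genes. The Dbp probe used is a mean of 10 spots, while the other clock probes have 1 spot each, so these SDs are not like for like. The other Dbp probe, of 1 spot, had an SD of 0.23, against 0.20 for Per2.

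The 3 treatment groups were compared with limma, with p-values adjusted over all 20902 genes. No clock gene passed the threshold of 0.05 in any comparison. Of all genes tested 0% were called in each of chronic minus saline, acute minus saline, chronic minus acute and the F test over the 3 groups. At an unadjusted p under 0.05, 1 of 10 clock genes, Clock, lay below it in chronic minus saline and 0 of 10 in each of the other 2 comparisons, against 597, 340 and 504 of all genes in chronic minus saline, acute minus saline and chronic minus acute. The median difference over the 10 genes was 0.09 in chronic minus saline, 0.07 in acute minus saline and 0.04 in chronic minus acute, against 0.02, 0.01 and 0.01 over all genes.

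The widest difference was that of Clock, at -5.90 in chronic units and -6.56 in saline units, a log2 difference of 0.65 (SE 0.22, 95% interval 0.18 to 1.12, unadjusted p = 0.00943, limma adjusted p = 0.999). Of 6 chronic units 3 lay above all saline units. Clock entered the test only through chronic and acute arrays, in which it was brighter, so this interval and p follow a selection in that direction and support nothing. The spots are near background: it was -0.03 after normexp background correction and 1.09 with the authors' values. Within slides 1, 2 and 3 it was 0.66, 0.31 and 0.61. The other Clock probe, 57 bases upstream, averaged -6.82 on chronic and -6.81 on saline arrays. It was well above background on 5 of 24 arrays, did not pass the filter, and had r = 0.15 with the brighter probe over 24 arrays.

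Of the other genes, Npas2 averaged 0.09 ± 0.22 in chronic units and -0.13 ± 0.58 in saline units (SD, n = 6 each), a difference of 0.22 with a 95% interval of -0.21 to 0.65. Without saline replicate 4 the chronic minus saline difference was 0.0013 for Npas2 and 0.037 for Arntl, against 0.18 for Arntl with it. Dbp averaged 3.62 ± 0.08 in chronic units and 3.62 ± 0.21 in saline units, a difference of 0.01 with an interval of -0.21 to 0.22, which is 0.866 to 1.16 as a fold. Dbp in acute units was at 3.73 ± 0.19, a difference of 0.11 from saline with an interval of -0.10 to 0.33. Nr1d1 differed by 0.08 in chronic minus saline and by -0.10 in acute minus saline, with intervals of -0.28 to 0.43 and -0.46 to 0.26. Except for that of Clock in chronic minus saline, the intervals of the 30 differences all include 0. Per1 showed how slides disagreed: its chronic minus saline difference was -0.44, -0.23 and 0.61 within slides 1, 2 and 3.

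**Figure D2:**
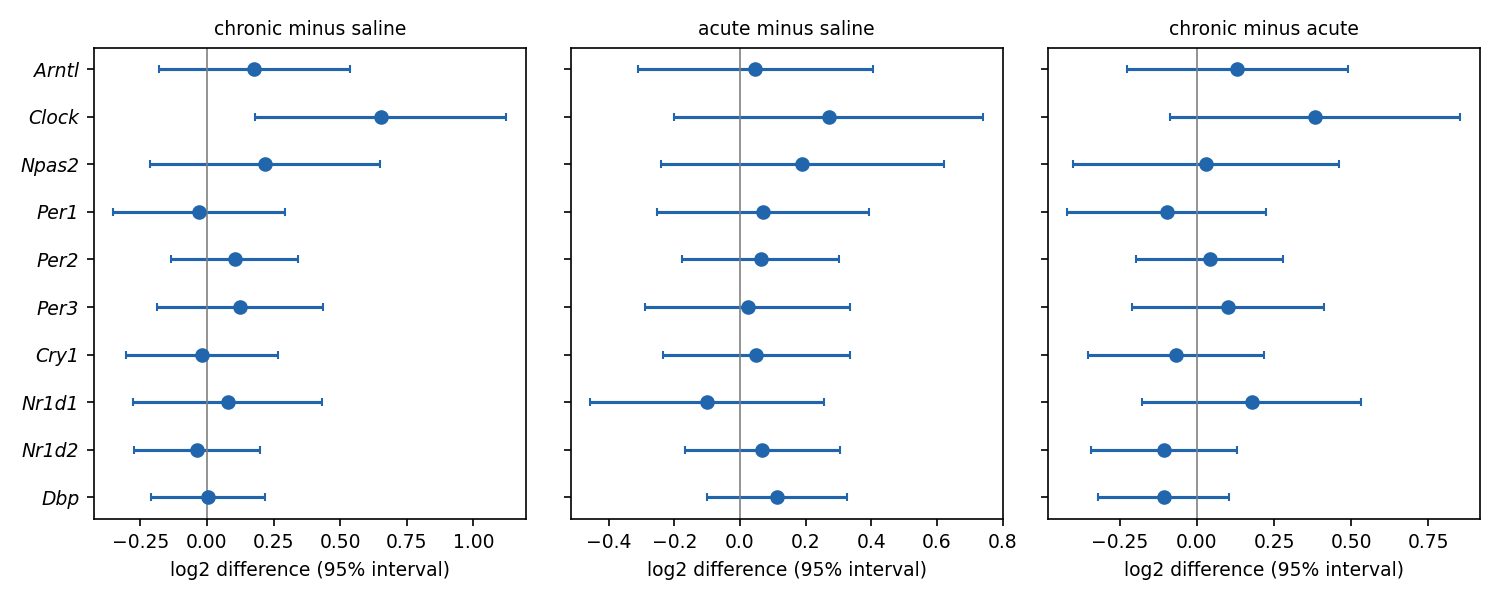
Log2 differences between groups (x axis) for the 10 clock genes (y axis), with 95% intervals from limma over 18 units, for chronic minus saline, acute minus saline and chronic minus acute. No gene passes after adjustment over all genes. The interval of Clock in chronic minus saline, 0.18 to 1.12, leaves out 0, but Clock passed the filter only through groups in which it was brighter (5 of 8 chronic, 5 of 8 acute and 1 of 8 saline arrays).

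The list of other clock genes, which includes the paralogue Cry2, the PAR factors Tef and Hlf, the repressor Nfil3, ROR receptors and casein kinases, held 32 genes of which 26 were measured. None was called in either direction in the 3 comparisons. Their median difference was 0.01 in chronic minus saline, 0.04 in acute minus saline and -0.04 in chronic minus acute.

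Covariation over the 18 units was then examined for the 45 pairs of clock genes, with Pearson's r, Spearman's rho and two-sided permutation tests of 100000 permutations, adjusted over the 45 pairs. By r 4 pairs passed and by rho 7. Without saline replicate 4, 12 pairs passed by r, the 4 among them, and the other 8 were Clock with Npas2, Npas2 with Nr1d2, Per1 with Per2, Per3, Nr1d2 and Dbp, Per2 with Per3, and Nr1d2 with Dbp. Arntl and Npas2, both of the positive limb, moved together (r = 0.90, rho = 0.88, permutation p = 1e-05, the smallest these permutations can give, adjusted p = 0.00045). Without the 2 units farthest from the Arntl median r was 0.83, and within slides it was 0.89, 0.98 and 0.60 over 8 arrays each. With group means removed it was 0.91, and without saline replicate 4 it was 0.86.

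Of the pairs that join Arntl to the negative limb or to Dbp, none passed the threshold. Arntl had an r of 0.02 with Dbp, -0.19 with Per1, 0.06 with Per2 and 0.33 with Nr1d1. Without saline replicate 4 these were -0.43 with Dbp, -0.36 with Per1, -0.29 with Per2 and 0.12 with Nr1d1, with adjusted permutation p from 0.181 to 0.696, so the signs with Dbp and Per2 turned on that 1 unit. With Nr1d2 it was -0.58 (rho -0.56, permutation p = 0.012, adjusted p = 0.0596), which was -0.40 without the 2 farthest units, -0.54, -0.61 and -0.84 within slides, and -0.28 once the probe contrast described further on was removed. With Clock, its partner, Arntl had r = -0.32. Per1, Per2 and Dbp, which peak at neighbouring phases in rhythmic tissue, had r of 0.59 for Per1 with Per2, 0.59 for Per1 with Dbp and 0.58 for Per2 with Dbp, each with an adjusted p of 0.0596 by permutation. By rho, at 0.64, 0.63 and 0.65, all 3 passed, with adjusted permutation p of 0.0359, 0.0387 and 0.0357. Without the 2 farthest units these r were 0.59, 0.47 and 0.53. Within slides they were 0.12, 0.75 and 0.42 for Per1 with Per2, 0.87, 0.39 and 0.28 for Per1 with Dbp, and 0.18, 0.33 and 0.58 for Per2 with Dbp. With the probe contrast removed they were 0.52, 0.55 and 0.54.

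**Figure D3:**
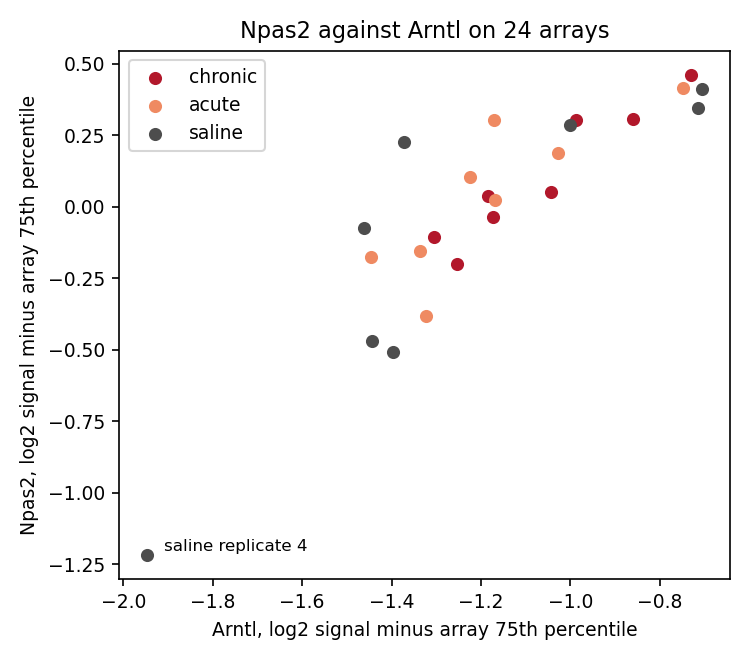
Npas2 (y axis) against Arntl (x axis) on the 24 arrays, both as log2 signal minus the 75th percentile of the array, coloured by group. The genes rise together over the 24 arrays (r = 0.88), with saline replicate 4 lowest, at -1.95 for Arntl and -1.22 for Npas2. Over the units of each group r was 0.96 in chronic, 0.63 in acute and 0.93 in saline.

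Read against the whole array, Npas2 ranked 1st by p of 20901 genes whose slope on Arntl was fitted with limma, with group means as intercepts. Its slope was 1.11 (SE 0.14) with a partial r of 0.91 and an adjusted p of 0.00729. In that fit 2.78% of genes were called, 435 with a positive and 146 with a negative slope, and of the other 9 clock genes only Npas2 was among them. Without saline replicate 4 the slope of Npas2 was 0.80, its partial r 0.87 and its rank 3rd, but no gene was called (adjusted p = 0.22). With choroid plexus, cortex and hypothalamus marker levels as covariates the slope was 0.73, with an adjusted p of 0.241, and no gene was called in that fit. With the same marker levels removed, r of Arntl with Npas2 over units was 0.86, against 0.90 before. Levels of some marker lists moved with both genes. The tests were adjusted over 140 relations of clock genes with marker lists and array-wide measures, and the p-values given are of r unless rho is named. Over units, the mean of 9 striatal projection neuron markers had r = 0.77 with Arntl (rho 0.64, permutation p = 0.00038, adjusted p = 0.00484) and r = 0.85 with Npas2 (rho 0.68, permutation p = 0.00037, adjusted p = 0.00484). Within slides these r were 0.77, 0.78 and 0.62 for Arntl and 0.61, 0.83 and 0.72 for Npas2, without the 2 farthest units 0.64 and 0.59, and without saline replicate 4 they were 0.55 and 0.56. The hypothalamic list ran the other way, at -0.70 with Arntl and -0.87 with Npas2 (rho -0.51 and -0.56, permutation p = 0.00519 and 0.00215, adjusted p = 0.045 and 0.0232), and these were -0.35 and -0.43 without the 2 farthest units. Within slides they were -0.84, -0.81 and -0.42 for Arntl and -0.75, -0.89 and -0.82 for Npas2, and without saline replicate 4 they were -0.33 and -0.44. By rho the hypothalamic list passed with neither gene (adjusted permutation p = 0.14 with Arntl and 0.0974 with Npas2). The striatal list passed by rho with Npas2 (0.0335) but not with Arntl (0.0538). The thalamus list had r of -0.67 with Arntl and -0.84 with Npas2 (adjusted permutation p = 0.0656 and 0.045). Without saline replicate 4 these were -0.22 and -0.33, and by rho neither passed. The remaining marker lists, cortex and choroid plexus among them, passed with neither gene. In bulk tissue fewer cells of a type and less RNA per cell cannot be told apart, and the part of the dissection in the Arntl and Npas2 relation was not tested beyond these values.

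The genes most like Arntl after Npas2 were Armcx3, Mrpl43, Lrrk2, Gpr158 and Ubxn8, with partial r of 0.91, 0.89, 0.88, 0.90 and 0.87 over 18 units. LRRK2 is a kinase known from Parkinson disease and GPR158 is a G protein-coupled receptor. Those most opposed were Ano10, Rgs3, Ttc39c, Rasd1, Il7r and Nr0b2, with partial r between -0.86 and -0.81. These partial r include saline replicate 4, without which no gene was called with Arntl. Of the list of other clock genes none was called with Arntl. The smallest p were those of Id2, an inhibitor of helix-loop-helix factors (partial r 0.68, adjusted p = 0.0639), Gsk3b, a kinase that acts on clock proteins (0.66, adjusted p = 0.074), Csnk1d (-0.57, adjusted p = 0.21) and Prkaa1 (-0.51, adjusted p = 0.223).

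In the fit on Npas2 11.2% of all genes were called, and among the clock genes Arntl alone. Of the 26 other clock genes Gsk3b, Id2 and Usp2 had positive and Prkaa1 had a negative slope past the threshold, at 0.72, 0.61, 0.49 and -0.37. Without saline replicate 4 no gene was called with Npas2 either.

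Dbp had no counterpart of this kind. In the fit on Dbp 0% of genes were called, although 1910 had an unadjusted p under 0.05. The smallest adjusted p was 0.147, for Slc35f5 and Gtse1, with partial r of -0.90 and -0.84, and Phf13, Pygb, Rassf3 and Fgf9 followed with partial r between -0.84 and -0.81. On the positive side were Scai, Hrh3, Lrp1b, Mctp1, Ccsap and Ssbp4, with partial r between 0.74 and 0.80. Of the clock genes Per2 (partial r 0.62, adjusted p = 0.456) and Per1 (0.58, adjusted p = 0.472) had the smallest p in that fit. Among the other clock genes these were Nampt (-0.72), Klf9 (0.66), Cry2 (0.74) and Tspan33 (-0.45), with adjusted p from 0.413 to 0.617. In the fit on Per2 0% of genes were called, and in that on Per1 0.0144%, which is 3 genes. Without saline replicate 4 the fit on Per1 called 787 genes and those on Per2 and Dbp 0.

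The other 3 pairs past the threshold joined Per3, Nr1d1 and Nr1d2. Per3 rose with Nr1d1 (r = 0.78, rho = 0.80, permutation p = 0.00012, adjusted p = 0.0018) and ran against Nr1d2 (r = -0.84, rho = -0.83, permutation p = 5e-05, adjusted p = 0.00112). Nr1d1 ran against Nr1d2 (r = -0.71, rho = -0.71, permutation p = 0.00083, adjusted p = 0.00934), although both are E-box targets that share a phase in rhythmic tissue. Without the 2 farthest units r was 0.72, -0.80 and -0.70 for these pairs. Within slides it was 0.85, 0.57 and 0.84 for Per3 with Nr1d1, -0.85, -0.96 and -0.86 for Per3 with Nr1d2, and -0.69, -0.48 and -0.83 for Nr1d1 with Nr1d2.

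These genes, and others of the list, moved with array-wide measures. For 859 transcripts outside the clock list with probes at least 500 bases apart, the upstream minus the downstream probe was centred per transcript, and its median on an array is called the probe position contrast. Over units it had r of 0.88 with Per3 (rho 0.87, permutation p = 1e-05, adjusted p = 0.00028), 0.74 with Nr1d1 (rho 0.80, permutation p = 0.00038, adjusted p = 0.00484) and -0.91 with Nr1d2 (rho -0.90, permutation p = 1e-05, adjusted p = 0.00028). Without the 2 farthest units these were 0.84, 0.64 and -0.91. Within slides they were 0.92, 0.90 and 0.86 for Per3, 0.88, 0.77 and 0.80 for Nr1d1 and -0.81, -0.89 and -0.88 for Nr1d2. With the contrast removed, r was 0.40 for Per3 with Nr1d1, -0.19 for Per3 with Nr1d2 and -0.14 for Nr1d1 with Nr1d2, while Arntl with Npas2 was at 0.86. The contrast also had r of -0.65 with Per1 (rho -0.62, permutation p = 0.00409, adjusted p = 0.0382), 0.52 with Arntl (rho 0.55, permutation p = 0.0232, adjusted p = 0.119) and 0.55 with Npas2 (rho 0.58, permutation p = 0.00754, adjusted p = 0.0556). Without the 2 farthest units these were -0.54, 0.47 and 0.55. Within slides they were -0.63, -0.39 and -0.69 for Per1, 0.47, 0.62 and 0.58 for Arntl and 0.68, 0.56 and 0.91 for Npas2. The p-values with the contrast are of r. By rho Per3, Nr1d1 and Nr1d2 passed too, while Per1, Arntl and Npas2 did not (adjusted permutation p = 0.057, 0.1 and 0.085). The first principal component of all genes, which had r = 0.90 with the contrast over 24 arrays, had r of 0.68 with Arntl (rho 0.59, permutation p = 0.00272, adjusted p = 0.0272) and 0.78 with Npas2 (rho 0.65, permutation p = 0.00035, adjusted p = 0.00484). Without the 2 farthest units these were 0.34 and 0.51, and within slides 0.65, 0.76 and 0.43 for Arntl and 0.81, 0.75 and 0.82 for Npas2. Without saline replicate 4 they were 0.45 and 0.60. By rho neither gene passed with the component (adjusted permutation p = 0.0795 with Arntl and 0.0538 with Npas2). With that component removed r of Arntl with Npas2 was 0.82. The contrast moved with a like contrast of GC-rich against GC-poor probes (r = 0.93 over 24 arrays), and probe position and GC content cannot be told apart in full. Over units the GC contrast had r of 0.93 with Per3, 0.85 with Nr1d1, -0.91 with Nr1d2 and -0.58 with Per1. With Arntl it had 0.34 and with Npas2 0.44. The GC contrast was not used as a covariate.

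**Figure D4:**
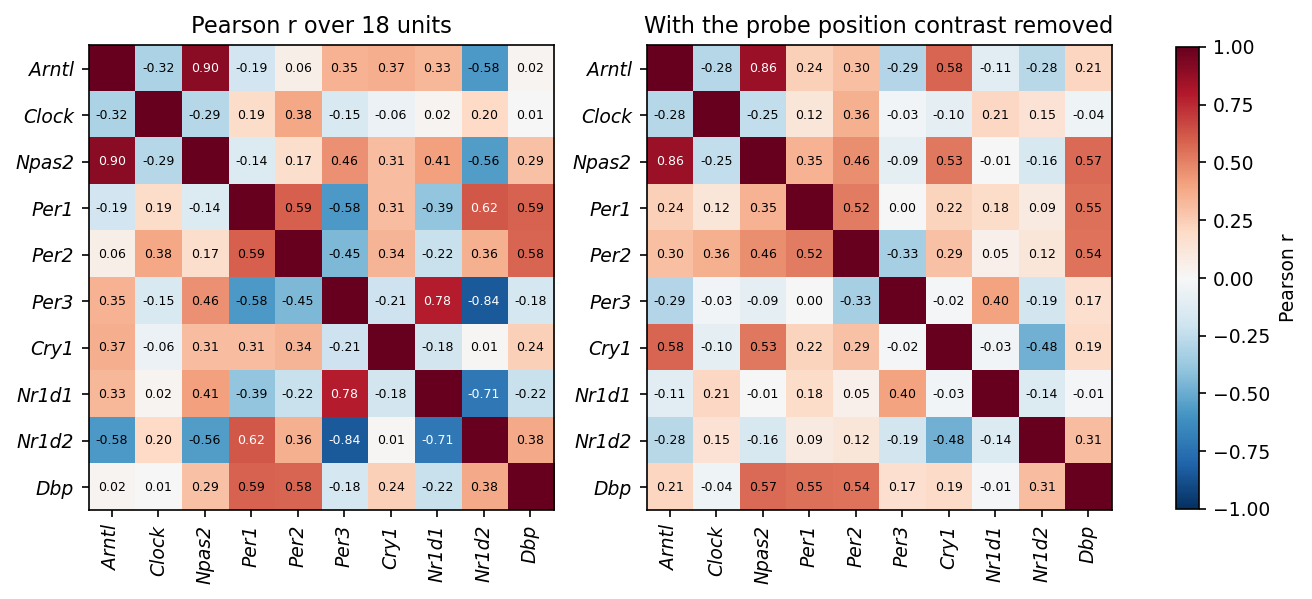
Pearson r for each pair of clock genes over 18 units (left) and with the probe position contrast removed (right), coloured from -1 to 1. At right Per3 with Nr1d1 is at 0.40, Per3 with Nr1d2 at -0.19, Nr1d1 with Nr1d2 at -0.14 and Arntl with Npas2 at 0.86.

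Of all genes 26% were called in the slope fit on Per3, 15.8% in that on Nr1d1 and 27.9% in that on Nr1d2, and 2, 2 and 4 of the other 9 clock genes were among them. With the position contrast as a covariate 1, 102 and 0 genes were called, against 5440, 3302 and 5832 without it. The contrast moves closely with these genes, which can widen standard errors, so a lost call alone does not show a lost relation. In the fit on Per3 standard errors widened, and the slope of Nr1d1 kept its size while that of Nr1d2 fell. The slope of Nr1d2 on Nr1d1 fell too, with a standard error much as before. The slope of Nr1d1 on Per3 was 0.87 (SE 0.47) with the covariate and 0.91 (SE 0.19) without it, while that of Nr1d2 on Per3 was -0.082 (SE 0.24) and -0.62 (SE 0.11), and that of Nr1d2 on Nr1d1 was -0.046 (SE 0.12) and -0.44 (SE 0.13). Of the 26 other clock genes 9, 2 and 12 were called with Per3, Nr1d1 and Nr1d2, and 0 with the covariate in each fit. Those called with Per3 were Bhlhe40, Id2, Nfil3 and Tspan33, with positive slopes of 0.43 to 1.20, and Bhlhe41, Ccrn4l, Csnk1d, Prkaa1 and Sirt1, with negative slopes of -0.71 to -0.35. With Nr1d1 they were Prkaa1 (-0.50) and Sik1 (-0.50). Those called with Nr1d2 had the opposite sign to Per3 wherever both fits called them, and Csnk1e, Gsk3b, Nono and Usp2 were called besides.

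Different probes of one gene were then compared. Whether they read the same isoforms was not tested. Per1 is read at base 3618 of one transcript model and at base 8324 of a longer one, on chromosome 10 of build rn4, at 55867840 to 55868424 across an intron and at 55869174 to 55869233. Over 24 arrays these probes had an r of 0.08 with each other, and of 0.66 and -0.57 with the position contrast. Nr1d2 is read at base 1500 and at base 4542, with r of -0.10 with each other and of 0.44 and -0.85 with the contrast, and the upstream probe was well above background on 17 of 24 arrays. Dbp on chromosome 1 is read at bases 1456 and 1594, at 96178285 to 96178344 and at 96178423 to 96178482, with r of 0.49 with each other and of 0.71 and -0.14 with the contrast. The 3 genes with 2 kept probes each had an upstream probe that moved with the contrast and a downstream one that did not or that moved against it. In all 3 the upstream probe was also the richer in GC. It had 55% against 45% in Per1, 41.7% against 35% in Nr1d2 and 51.7% against 46.7% in Dbp. Position and GC content cannot be told apart in this comparison. The brighter probe, used for the gene, is the downstream one in all 3.

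Probes in which a reading frame is open are shown for 4 genes, so that the sequences behind these values can be seen: the upstream ones of Per1 and Nr1d2, which moved with the contrast, that of Nr1d1 and the brighter one of Clock.
Per1 at base 3618, 55% GC: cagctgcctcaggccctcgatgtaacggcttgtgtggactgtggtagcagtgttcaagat
Nr1d2 at base 1500, 41.7% GC: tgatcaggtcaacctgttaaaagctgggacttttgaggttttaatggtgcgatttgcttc
Nr1d1 at base 1415, 53.3% GC: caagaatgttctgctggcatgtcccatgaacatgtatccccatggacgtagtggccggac
Clock at base 2156, 55% GC: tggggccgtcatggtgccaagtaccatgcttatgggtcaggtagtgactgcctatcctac
The Nr1d1 probe lies on chromosome 10 of build rn4 at 87543165 to 87543519 across an intron, and the Clock probe on chromosome 14 at 34254357 to 34254416.

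**Figure D5:**
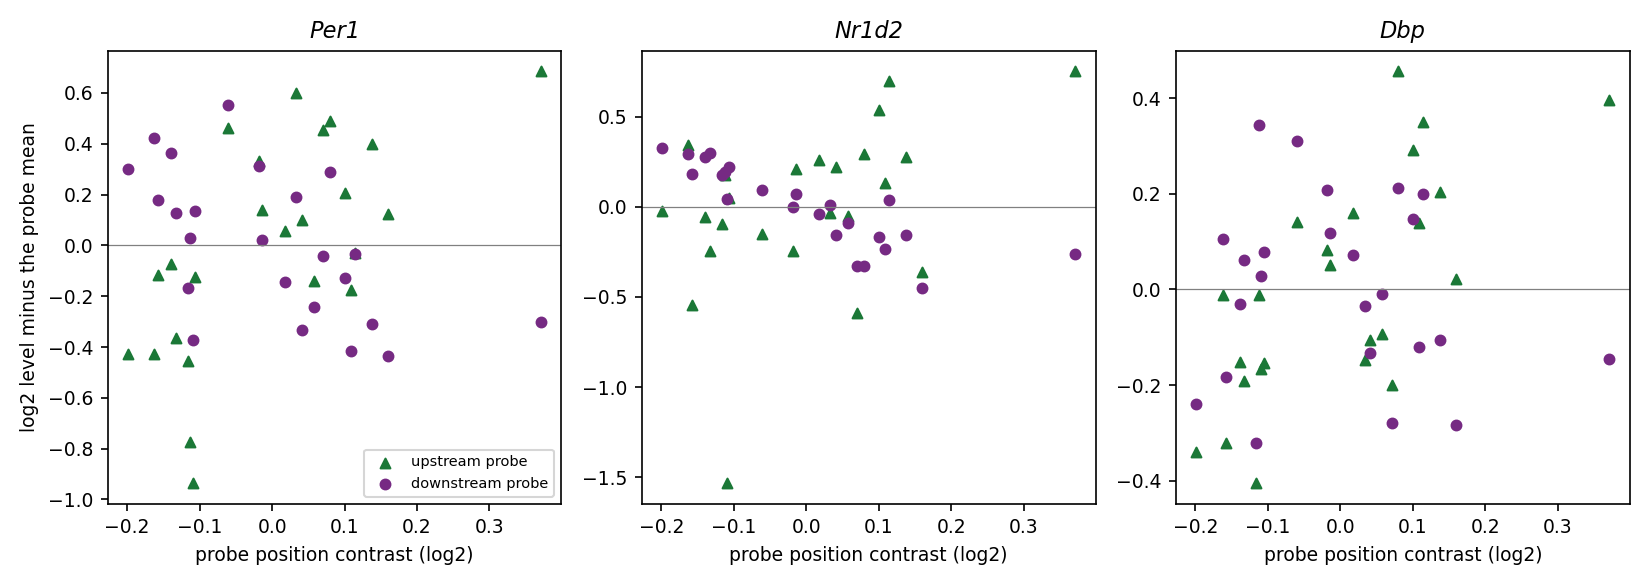
Level of the upstream (triangles) and downstream (circles) probe of Per1, Nr1d2 and Dbp on 24 arrays (y axis, log2 level minus the mean of the probe) against the probe position contrast of the array (x axis, log2). Upstream probes run upward (r = 0.66, 0.44 and 0.71) and downstream probes do not (r = -0.57, -0.85 and -0.14). The upstream probe of each gene is also the richer in GC.

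With the dimmer kept probe of Nr1d2 in place of the brighter one, and the Per3 probe unchanged, r of Per3 with Nr1d2 was 0.070. That Nr1d2 probe averaged -5.56 over 24 arrays, against 1.00 for the brighter one, and was well above background on 17 of them. Arrays that share a title letter in a group show how far the measure moved within a unit. Chronic replicates 2 and 5, which share one, had Nr1d1 at -1.78 and -3.12 and Per3 at -1.70 and -2.67, with position contrasts of 0.37 and -0.11. Over the 6 such pairs the median absolute difference was 0.74 for Per3, 0.57 for Npas2 and 0.24 for Dbp. The Dbp value is a mean of 10 spots and the others are of 1 spot. By group the contrast had lowest, median and highest of -0.11, 0.05 and 0.37 on chronic arrays, -0.20, -0.07 and 0.10 on acute arrays and -0.16, 0.02 and 0.16 on saline arrays.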

How the data were processed

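Per the file headers, each deposited processed signal is an intensity after background subtraction and detrending by Agilent Feature Extraction, 10.7 per the submitters' processing notes, and probe coordinates are of build rn4. The other columns used were mean and background intensities and flags. The authors' deposited table of log2 values, used as an alternative, keeps the rank of the processed signals. Its values over all arrays together run from 2.68 to 18.1. Its method is not given in the sources used here.

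Each array's 75th percentile over non-control spots was subtracted from its log2 signals, and uneven or outlier spots were left out. The filter kept 26259 of 45598 probes and asked that, in some group, a share of 0.5 or more of its arrays read the probe well above background. A gene was its kept probe of highest mean. Fits used limma 3.58.1, with p-values adjusted by Benjamini-Hochberg across every gene tested, and the code was tested on simulated data. Relations with array-wide measures and marker levels were adjusted over all such relations with clock genes. The members and lists were chosen with earlier results of these data known. Genes named beside the members are, in the Arntl and Dbp fits, the 6 with a symbol of most positive and of most negative moderated t, and of the other clock genes those past the threshold in any fit and the 4 with the smallest p. The probe position contrast, the first principal component and the percentage of spots well above background were chosen as covariates after seeing the data. The alternatives were other normalizations and filters, other probes, other ways to treat arrays of a letter, slides and title series, other moderation, the compared groups alone, marker levels as covariates and each unit left out. Fits ran in R 4.3.3 with statmod 1.5.0. Correlations used scipy 1.17.1, pandas 2.3.3 and numpy 2.4.6 under Python 3.11.15, and plots used matplotlib 3.10.9.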

Additional observations from a re-analysis of the deposited data

Results flagged for a closer look

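In 4 of 30 sets of 6 units, 1 unit lay far from the other 5, which chance gives in about 1 of 20 sets. Clock in chronic replicate 1 was at -4.90, with the next unit at -5.89, and without it the chronic minus saline difference was 0.45. Npas2 in saline replicate 4 was at -1.22, with the next unit at -0.14. Per3 in chronic replicate 1 was at -2.93, with the next unit at -2.39, and in saline replicate 7 it was at -2.07, with the next unit at -2.52.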

How the results depend on the processing

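No group comparison called a gene under any alternative, and no difference of a clock gene was called in any. Of the 30 differences 29 took both signs over the settings, slides alone included. The 581 genes called with Arntl were 277 with quantile normalization, 36 with normexp, 340 with the authors' values, 2563 with 24 arrays as independent samples, 1806 with the letter as a random block, 201 with 1 array per letter of digit 1, 1899 with slide as a block, 3 with no filter, 875 with probes well above background on all arrays, 1536 with group means not removed, 0 with marker levels, 9 with the position contrast and 0 with the first principal component as covariates, and 0 (without saline replicate 4) to 703 with 1 unit left out. With Dbp the count was 1 with quantile normalization, the authors' values and 1 array per letter of digit 0. The 4 pairs past the threshold were 9 with quantile normalization, normexp and 24 arrays, 7 with the authors' values, 2 with the mean of the kept probes and with the dimmer probe, 10 of 36 with probes above background on all arrays, and 3 to 12 with 1 unit left out, 12 being without saline replicate 4. The r of Per3 with Nr1d2 turned to 0.070 with the dimmer Nr1d2 probe, which was well above background on 17 of 24 arrays. The cause of these changes was not tested.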
